A study of Mus musculus with 19 samples.

Results

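RAB proteins are small GTPases that decide which membrane a transport vesicle leaves, travels along and fuses with. The transcripts described here are all protein-coding rows of the deposited gene table whose symbol is Rab followed by a number and at most a letter and a further digit, which gave 58 of 33559 rows (17924 of them protein-coding). The table came from bulk RNA-seq of wild-type mouse bone marrow monocytes, precursors of macrophages, in 5 libraries. The labels record treatment with GCSF (granulocyte colony-stimulating factor, the cytokine that drives neutrophil production) for 3 libraries, called G-CSF replicates 1 to 3, and treatment None for 2 libraries, called control replicates 1 and 2. They give no dose, no duration, no age or sex, no sorting gate, and neither whether G-CSF was given to mice or to cultured cells nor whether replicates came from separate animals, so p-values measure only the spread between these samples, which may be technical. The other 14 samples of the series, single-cell libraries of wild-type and knockout skin, were not analysed here.

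A RAB cycles between a GDP-bound form, held in the cytosol by a GDP dissociation inhibitor (GDI), and a GTP-bound form on a membrane, where it recruits effectors such as tethers and motors. Guanine nucleotide exchange factors (GEFs) switch a RAB on, and GTPase-activating proteins (GAPs), many with a TBC domain, switch it off. In monocytes and macrophages, RABs carry an ingested particle through early and late endosomal stages to the lysosome, return receptors to the cell surface, and release granules and cytokines.

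The libraries did not stand on equal footing. The reads recovered from the FPKM steps (fragments per kilobase of gene, relative to the size of the library) totalled 6988609, 6952821 and 5911052 in the G-CSF libraries, against 5981805 in control replicate 1 and 2923773 in control replicate 2. Protein-coding rows held 13.8%, 34.0% and 23.5% of the summed FPKM in the G-CSF libraries, against 46.5% in control replicate 1 and 6.98% in control replicate 2, and the part of this in the RAB differences was not tested. Of 10 monocyte markers, 7 had all 3 G-CSF libraries above both controls and 1 (Irf8) had them all below, and the summed level of the list was 3129 to 5733 FPKM with G-CSF, compared with 3741 and 1402 FPKM without. Neutrophil markers (10 genes, 2 of them higher and 1 lower in all G-CSF libraries) summed to 2490 to 3883 FPKM with G-CSF, against 6928 FPKM in control replicate 1 and 1594 FPKM in control replicate 2, so the controls lay on either side of the G-CSF libraries. B cell markers (9 genes, 5 of them lower in all G-CSF libraries) summed to 58.2 to 78.1 FPKM with G-CSF, compared with 203 and 110 FPKM without. Erythroid markers (7 genes, none separating the groups) summed to 89.3 to 781 FPKM against 1351 and 351 FPKM. The erythroid sum was highest in control replicate 1, with G-CSF replicate 2 next. Megakaryocyte markers (6 genes, 3 lower) summed to 352 to 561 FPKM against 283 and 755 FPKM. Eosinophil, basophil and mast cell markers (6 genes, 2 lower) summed to 52.1 to 71.0 FPKM against 93.1 and 189 FPKM. Dendritic cell markers (6 genes, 3 lower) summed to 17.2 to 29.0 FPKM against 19.1 and 23.8 FPKM. T and NK cell markers (7 genes, 3 lower) summed to 0.882 to 2.95 FPKM against 4.25 and 3.52 FPKM, with Cd3e, Cd3g, Trbc1 and Ncr1 under 1 FPKM in every library. The sums for B cells, for T and NK cells and for eosinophils, basophils and mast cells were lower in every G-CSF library than in either control. No listed marker was at 0 in all 5 libraries. In bulk RNA, fewer cells of a type and less RNA per cell cannot be told apart, and the part of these other cells in the RAB differences was not tested.

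Of the 58 RAB transcripts, 41 reached 1 FPKM in at least 2 libraries and were tested. No member passed the limma test at an adjusted p under 0.05, where 0.00596% of all rows did, nor did any with voom on recovered reads. At an unadjusted p under 0.05, 7 members were higher with G-CSF (17.1% of the 41, beside 7.9% of all rows tested) and 1 was lower (2.44%, beside 4.76%), together 19.5% beside 12.7%. The higher ones were Rab7b, Rab32, Rab31, Rab20, Rab9, Rab29 and Rab8b, and the lower one was Rab37. Rab37 reached 1 FPKM only in the controls, so it passed the filter only through the group where it was higher. The split became 3 higher and 1 lower after quantile normalization (beside 5.89% and 5.82% of all rows), and 3 higher and 3 lower after median centring on protein-coding rows (beside 5.59% and 6.88%). The 3 G-CSF libraries lay wholly above both controls for 12 members, while 20% of all rows did so. They lay wholly below for 5 members, while 11.9% of all rows did so. In either direction this made 17 members, or 41.5%, beside 32% of all rows and 35.0% of protein-coding rows. Of the 5 wholly below, Rab37 and Rab23 reached 1 FPKM only in the controls, and Rab27b only there and in G-CSF replicate 1.

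The fitted log2 difference, G-CSF minus control (on the log2(FPKM + 1) scale, which understates the change of low genes) was positive for 27 of 41 members, with a median of 0.11, beside 0.08 over all rows and 0.12 over protein-coding rows. After quantile normalization or centring it was positive for 20 of 41. Centring moved every row by -0.14. The place of the RAB median among all rows depended on the control: without control replicate 1 it was 0.09, beside 0.19 over all rows, and without control replicate 2 it was 0.24, beside 0.05. The summed FPKM of the 58 members was 0.450%, 0.444% and 0.452% of all protein-coding FPKM in the G-CSF libraries, against 0.396% in control replicate 1 and 0.506% in control replicate 2. By role, tested late endosomal, phagosomal, early endosomal and recycling members had mostly positive differences, and tested secretory members mostly negative ones. No test was made between roles.

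**Figure D1:**
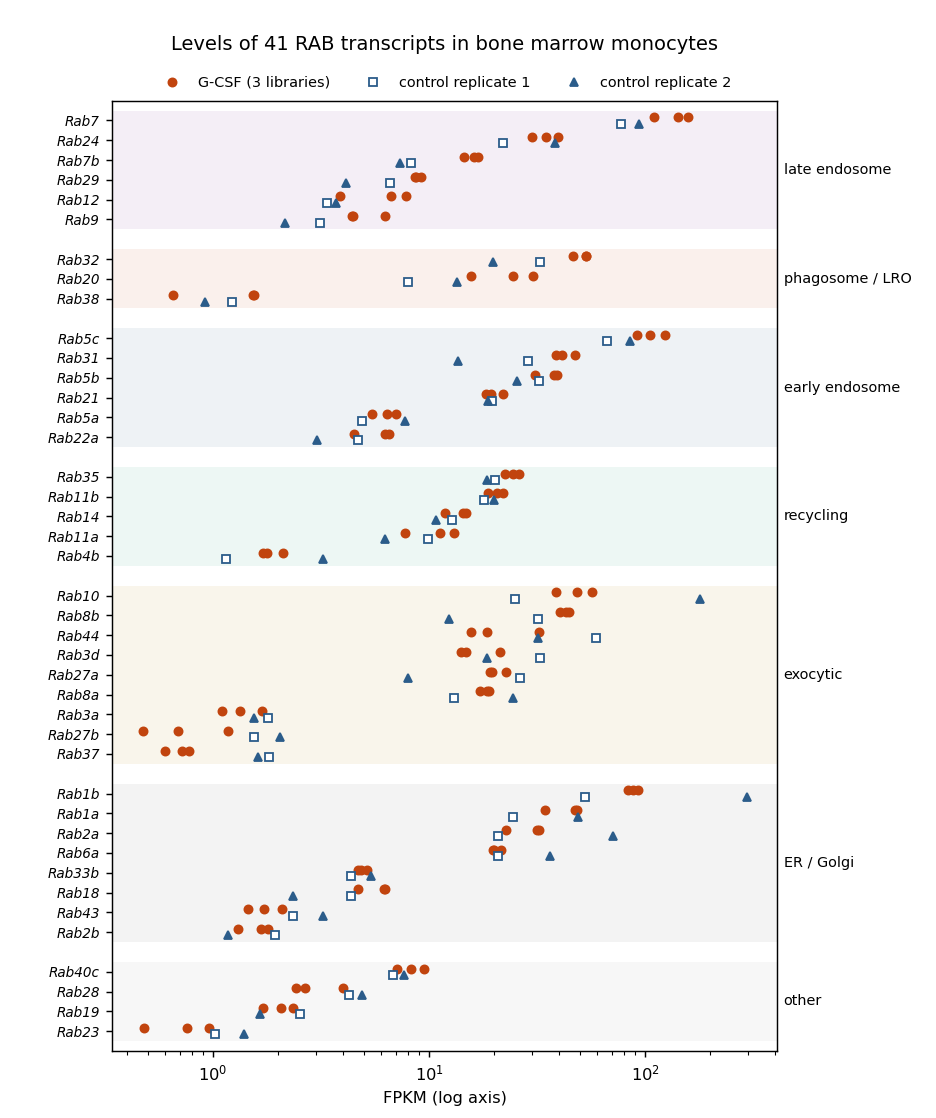
FPKM of the 41 tested RAB transcripts (log axis) in each library, with filled circles for the 3 G-CSF libraries, open squares for control replicate 1 and triangles for control replicate 2, grouped by role (LRO stands for lysosome-related organelle, a secretory relative of the lysosome). Late endosomal Rab7 at 109.8 to 158 FPKM with G-CSF against 77.0 and 94.1 FPKM lies near the top, and in Rab10 and Rab1b control replicate 2 stands far to the right of the other 4 libraries.

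Of the 5 members with the smallest unadjusted p, the promoters of Rab32, Rab31 and Rab20 are printed so that the sequence at their starts can be read beside their levels, and Rab7b and Rab37 are named only. Each is the 300-base window of RefSeq around the gene start on GRCm38.p6, 5′ to 3′ on the gene's strand. Rab32 lies at chr10:10558158-10558457, Rab31 at chr17:65772703-65773002 and Rab20 at chr8:11478591-11478890, all on the minus strand. Capitals mark matches, on either strand, to GAGGAA (a PU.1 core, read as TTCCTC on the other strand) or CACGTG (an E-box).
Rab32: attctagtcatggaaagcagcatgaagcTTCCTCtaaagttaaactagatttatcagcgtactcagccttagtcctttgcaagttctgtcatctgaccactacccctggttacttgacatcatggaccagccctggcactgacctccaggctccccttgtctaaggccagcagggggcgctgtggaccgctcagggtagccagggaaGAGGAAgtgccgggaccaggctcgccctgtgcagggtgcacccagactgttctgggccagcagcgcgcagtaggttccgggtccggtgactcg
Rab31: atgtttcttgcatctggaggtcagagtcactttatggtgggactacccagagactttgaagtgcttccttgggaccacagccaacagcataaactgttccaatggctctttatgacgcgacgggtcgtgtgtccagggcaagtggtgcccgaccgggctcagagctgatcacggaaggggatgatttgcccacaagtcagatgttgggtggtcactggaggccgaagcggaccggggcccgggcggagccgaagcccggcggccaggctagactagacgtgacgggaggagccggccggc
Rab20: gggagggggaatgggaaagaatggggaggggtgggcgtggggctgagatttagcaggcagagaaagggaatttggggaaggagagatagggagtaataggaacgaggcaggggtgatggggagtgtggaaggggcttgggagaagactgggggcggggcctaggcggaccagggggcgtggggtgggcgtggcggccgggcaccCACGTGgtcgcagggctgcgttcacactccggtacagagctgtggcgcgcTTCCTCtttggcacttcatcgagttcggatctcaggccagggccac
A search of both strands covered 4 motifs, chosen after the values were seen: TTCNNNGAA for STAT factors, TTGCNNAA for C/EBP factors, the E-box CACGTG named above and the PU.1 core GAGGAA. Promoter entries matched 47 of the 58 members, with 59 promoters. Rab32 held 2 GAGGAA matches, Rab20 held 1 GAGGAA and 1 CACGTG match, and Rab31 held none of the 4 motifs. Over all 59 RAB promoters the STAT letters occurred in 8.47%, beside 8.30% of the 32851 promoters in the table. The corresponding shares were 6.78% and 10.8% for C/EBP, 10.2% and 7.15% for the E-box and 18.6% and 28.3% for GAGGAA. A match describes these letters only and is not a binding site.

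Late endosomal and lysosomal RABs were mostly higher with G-CSF without passing the test. All 6 tested members had a positive difference (median 0.66), in 5 of them every G-CSF library was above both controls (20% of all rows), and 3 were higher at an unadjusted p under 0.05 (7.9% of all rows). That count was 2 after quantile normalization (5.89% of all rows) and 1 after centring (5.59%). With the replicate number as a block it was 0 (3.36%). All 6 members stayed positive under quantile normalization and under centring, and 5 of 6 without control replicate 1. Their summed level was 228, 181 and 212 FPKM in the G-CSF libraries, against 120 and 150 FPKM in the controls.

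Rab7b, which in mouse macrophages steers Toll-like receptors toward lysosomes, measured 16.9, 14.5 and 16.1 FPKM in the G-CSF libraries, against 8.28 and 7.30 FPKM in the controls. The lowest G-CSF library was thus well above the higher control, and both controls lay close together. The means were 15.9 ± 1.22 FPKM (SD, n = 3) and 7.79 ± 0.694 FPKM (SD, n = 2). The log2 difference was 0.94 ± 0.23 (SE), with an unadjusted p of 0.00692, the smallest of the 41, and a limma adjusted p of 0.270. Rab7b had an unadjusted p under 0.05 with any 1 library left out. It rested on 672, 653 and 558 reads with G-CSF and 356 and 117 reads without.

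Rab7b (ENSMUSG00000052688, chr1:131688695-131715439, plus strand) and Rab29 (chr1:131867224-131872887, plus strand) lie on the same chromosome, 151784 bases apart by GENCODE M21 on GRCm38. Rab29, a partner of the kinase Lrrk2 at the Golgi and lysosome, measured 9.19, 8.69 and 8.65 FPKM with G-CSF, against 6.59 and 4.13 FPKM without. The G-CSF libraries were almost equal, and the controls differed from each other by more than the gap between the groups. Its log2 difference was 0.66 ± 0.26 (SE; limma adjusted p = 0.387).

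Rab9, which returns mannose-6-phosphate receptors from late endosomes to the Golgi, measured 6.25, 4.41 and 4.43 FPKM with G-CSF, against 3.14 and 2.14 FPKM without. The groups did not overlap, and G-CSF replicate 1 was the highest library. The log2 difference was 0.73 ± 0.27 (SE; limma adjusted p = 0.373). Rab7, the RAB that brings late endosomes, phagosomes and autophagosomes to fusion with lysosomes, was the most abundant member of the group. It measured 158, 109.8 and 142 FPKM with G-CSF, against 77.0 and 94.1 FPKM without. The groups did not overlap, but the G-CSF libraries spread more widely than the gap between groups, and the log2 difference of 0.66 ± 0.33 (SE) had a limma adjusted p of 0.450.

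Rab12, which directs transferrin receptor to lysosomes, measured 7.86, 3.87 and 6.70 FPKM with G-CSF, against 3.37 and 3.71 FPKM without. G-CSF replicate 2 sat just above the controls, apart from the other G-CSF libraries, and the log2 difference was 0.61 ± 0.32 (SE; limma adjusted p = 0.461). Rab24, linked to the clearance of autophagosomes, measured 30.02, 39.3 and 34.6 FPKM with G-CSF, against 22.0 and 38.2 FPKM without. It was the only tested late endosomal member whose groups overlapped, and its log2 difference of 0.24 ± 0.33 (SE; limma adjusted p = 0.767) became -0.15 without control replicate 1. Exons of Rab7 and Rab24 overlap an annotated gene on the opposite strand, and since the strandedness of the libraries is not given, such reads cannot be told apart. Of the 41 tested members, 17 have an exon overlap on the same or the opposite strand. The other late endosomal members named here have none.

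Among the RABs of phagosomes and lysosome-related organelles, 3 of 6 were tested. Rab32, which guides cargo to lysosome-related organelles and in mouse macrophages restricts Salmonella, measured 53.5, 46.4 and 53.3 FPKM with G-CSF, against 32.6 and 19.9 FPKM without. All G-CSF libraries were above both controls, and the means were 51.1 ± 4.06 FPKM (SD, n = 3) and 26.2 ± 9.01 FPKM (SD, n = 2). The log2 difference was 0.97 ± 0.31 (SE; unadjusted p = 0.0218, limma adjusted p = 0.339). Rab20, which takes part in phagosome maturation in macrophages, measured 24.5, 15.6 and 30.2 FPKM with G-CSF, against 7.96 and 13.5 FPKM without. The lowest G-CSF library was only a little above control replicate 2, so the groups were separate by a narrow margin. Its log2 difference was 1.05 ± 0.38 (SE; limma adjusted p = 0.368), and its exons overlap E230013L22Rik on the opposite strand. Rab38, the paralog that acts with Rab32 in melanosome formation, measured 1.55, 0.652 and 1.53 FPKM with G-CSF, compared with 1.23 and 0.915 FPKM without, with overlapping groups. Its log2 difference of 0.09 ± 0.31 (SE) was negative after quantile normalization and after centring. The untested Rab34, Rab39 and Rab39b are given with the other low members.

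**Figure D2:**
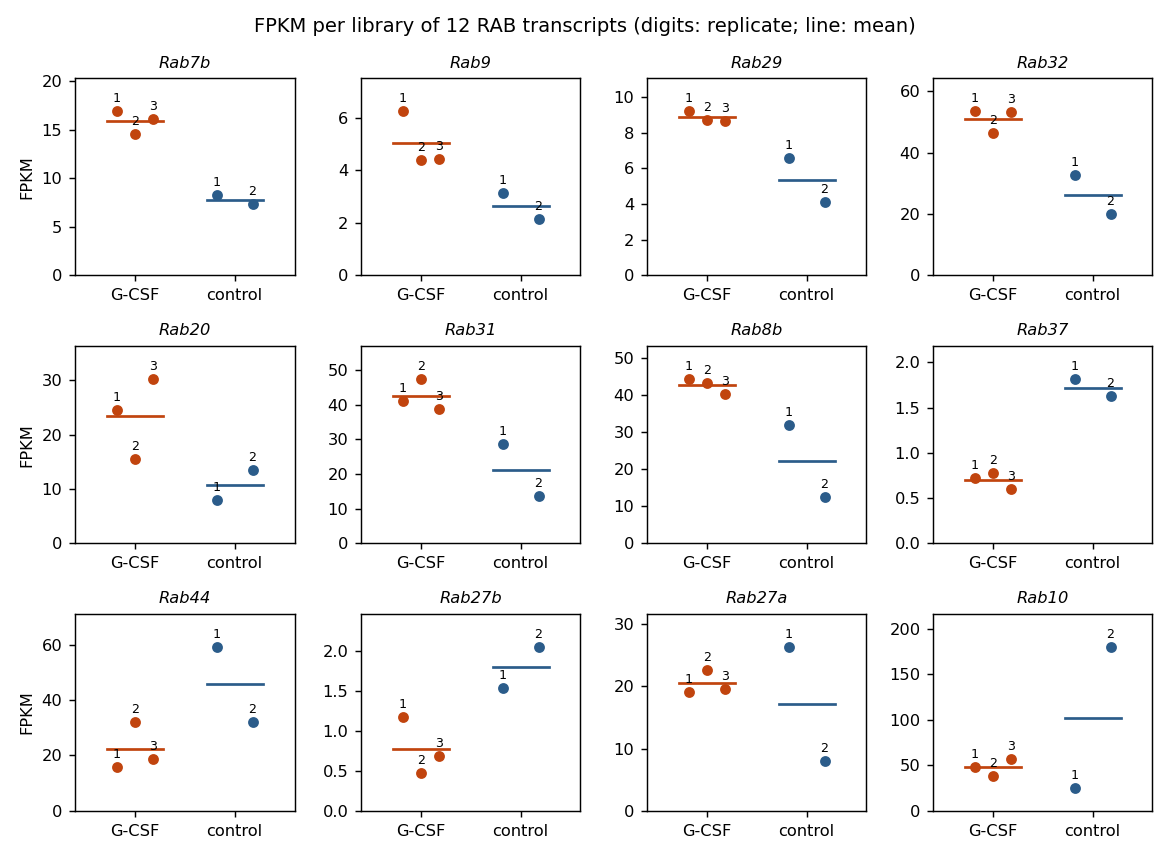
FPKM in each library (y axes start at 0) for 12 RAB transcripts, with G-CSF on the left and control on the right, digits marking the replicate and lines the group means. Rab7b, Rab32 and Rab31 show every G-CSF point above both control points, Rab37 shows every G-CSF point below them, and Rab27a and Rab10 have controls that lie on either side of the G-CSF libraries.

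All 6 early endosomal RABs were tested. Each had a positive difference (median 0.39), though 4 of 6 did after quantile normalization or centring. In 2 of the 6 (33.3%), both higher with G-CSF, the groups did not overlap. Of all rows, 20% lay wholly above the controls and 32% did not overlap in either direction. Rab31, which works between the Golgi and endosomes and on phagosomes, measured 41.2, 47.4 and 38.7 FPKM with G-CSF, against 28.7 and 13.6 FPKM without. The controls differed from each other more than control replicate 1 differed from the lowest G-CSF library. The log2 difference was 1.06 ± 0.37 (SE; unadjusted p = 0.0305, limma adjusted p = 0.361), the highest of all 41 members.

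The Rab5 paralogs share the task of early endosome fusion and are present at different levels. Rab5c, the most abundant per length, measured 105.0, 91.5 and 123 FPKM with G-CSF, against 66.4 and 84.8 FPKM without, with no overlap and a log2 difference of 0.49 ± 0.32 (SE; limma adjusted p = 0.523). Rab5b measured 37.7, 31.1 and 39.0 FPKM with G-CSF, compared with 32.3 and 25.6 FPKM without, and the groups overlapped. Rab5a measured 7.02, 5.44 and 6.37 FPKM with G-CSF, compared with 4.92 and 7.72 FPKM without. Its controls enclosed the G-CSF libraries, and its log2 difference of 0.01 ± 0.27 (SE) was negative after quantile normalization and after centring. Rab22a, which acts between early and recycling endosomes, had a log2 difference of 0.48 ± 0.28 (SE), and Rab21, which moves integrins, had 0.05 ± 0.24 (SE), which was negative after quantile normalization and after centring; both had overlapping groups.

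Recycling RABs showed small differences. Of 9 members 5 were tested, 4 had a positive difference (3 after quantile normalization or centring), and the fitted values ran from -0.07 to 0.37. Rab35, which drives fast recycling to the plasma membrane, measured 24.5, 22.5 and 26.1 FPKM with G-CSF, against 20.1 and 18.5 FPKM without. It was the only member of the group whose G-CSF libraries were all above both controls, and its log2 difference was 0.32 ± 0.24 (SE; limma adjusted p = 0.579). Rab11b, a marker of the recycling endosome, measured 18.7, 22.0 and 20.7 FPKM with G-CSF, compared with 17.9 and 19.9 FPKM without. Its paralog Rab11a measured 12.99, 7.77 and 11.3 FPKM with G-CSF, compared with 9.89 and 6.27 FPKM without. Both paralogs had overlapping groups, with log2 differences of 0.11 ± 0.24 and 0.37 ± 0.32 (SE), and that of Rab11b was negative after quantile normalization and after centring. Rab14, which links the Golgi and endosomes, had 0.21 ± 0.24 (SE), and Rab4b, of the rapid recycling route, had -0.07 ± 0.34 (SE).

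**Figure D3:**
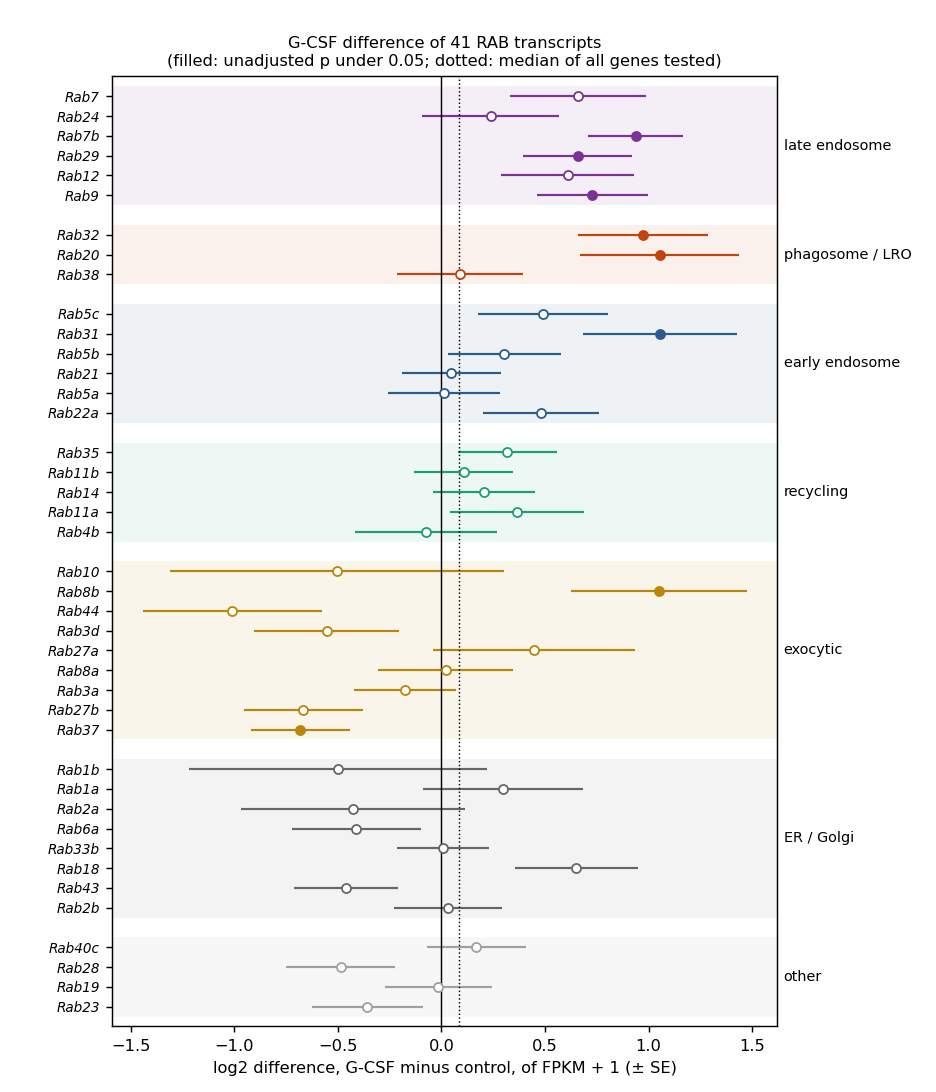
Log2 difference of G-CSF minus control on the log2(FPKM + 1) scale, with bars for 1 SE, for the 41 tested RAB transcripts grouped by role; filled points have an unadjusted p under 0.05, none passed after adjustment, and the dotted line is the median of all genes tested (0.08). The 6 late endosomal points lie right of the solid line at 0, as they do after quantile normalization and centring, while the exocytic points range from -1.01 for Rab44 to 1.05 for Rab8b.

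Exocytic and granule-secretion RABs spanned the widest range of fitted differences among the roles, -1.01 to 1.05. Of 13 members 9 were tested, 3 with a positive and 6 with a negative difference (median -0.50), and 2 stayed positive after quantile normalization or centring. Their summed level was 164, 181 and 172 FPKM with G-CSF, against 194 and 283 FPKM without. Rab10 made up most of the sum in control replicate 2. For the members other than Rab10 the sum was 115, 142 and 115 FPKM with G-CSF, against 169 and 103 FPKM without, so the controls lay on either side, and the median difference was -0.36.

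Rab37, found on secretory granules of mast cells and on TNF-carrying vesicles of mouse macrophages, measured 0.720, 0.772 and 0.602 FPKM with G-CSF, against 1.82 and 1.62 FPKM without. The 3 G-CSF libraries and the 2 controls formed tight, separate groups, with means of 0.698 ± 0.0871 FPKM (SD, n = 3) and 1.72 ± 0.136 FPKM (SD, n = 2). The log2 difference was -0.68 ± 0.24 (SE; unadjusted p = 0.0301, limma adjusted p = 0.361). Rab27b, which docks secretory granules, measured 1.18, 0.472 and 0.688 FPKM with G-CSF, against 1.54 and 2.05 FPKM without. Every G-CSF library was below both controls, and the log2 difference was -0.67 ± 0.29 (SE; limma adjusted p = 0.409). Both are low transcripts in these cells. Rab37 rested on 33, 40 and 24 reads with G-CSF and 90 and 30 reads without. Rab37 reached 1 FPKM only in the controls, so it could be tested only because it was higher there. Rab27b reached 1 FPKM in both controls but with G-CSF only in replicate 1, so it too needed the controls to pass the filter.

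Rab44, a large RAB with a calcium-binding region that promotes degranulation of mouse mast cells, measured 15.7, 32.2 and 18.6 FPKM with G-CSF, against 59.2 and 32.1 FPKM without. G-CSF replicate 2 and control replicate 2 were almost equal, so the groups overlapped by a narrow margin. The log2 difference was -1.01 ± 0.43 (SE; limma adjusted p = 0.407), the lowest of the 41. Rab3d, a granule RAB of secretory cells, measured 14.9, 21.3 and 14.0 FPKM with G-CSF, compared with 32.6 and 18.6 FPKM without. Its groups overlapped, and the log2 difference was -0.55 ± 0.35 (SE; limma adjusted p = 0.517). In both Rab44 and Rab3d, control replicate 1 was the highest library, and G-CSF replicate 2 was the highest with G-CSF. The same held for the summed neutrophil markers given above. In control replicate 2, however, that sum was the lowest of all (1594 FPKM), while Rab44 and Rab3d were above G-CSF replicates 1 and 3. The part of neutrophils in these differences was not tested. Rab3a, of synaptic vesicles, measured 1.10, 1.34 and 1.68 FPKM with G-CSF, compared with 1.79 and 1.56 FPKM without, with overlapping groups.

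Rab27a, which with its effector Unc13d releases secretory lysosomes and neutrophil granules, measured 19.2, 22.7 and 19.6 FPKM with G-CSF, against 26.3 and 8.03 FPKM without. The controls lay on either side of the G-CSF libraries, and the log2 difference of 0.45 ± 0.49 (SE; limma adjusted p = 0.701) became -0.35 without control replicate 2. Rab8b, which carries cargo to the plasma membrane, measured 44.3, 43.2 and 40.3 FPKM with G-CSF, against 32.0 and 12.4 FPKM without. The G-CSF libraries were close together and above both controls, and the log2 difference was 1.05 ± 0.42 (SE; unadjusted p = 0.0488, limma adjusted p = 0.392). Its paralog Rab8a measured 17.1, 19.0 and 18.5 FPKM with G-CSF, compared with 13.04 and 24.5 FPKM without, with the controls on either side and a log2 difference of 0.02 ± 0.33 (SE) that was negative after quantile normalization and after centring. Rab10, which in macrophages helps deliver Toll-like receptor 4 to the surface, measured 48.4, 38.7 and 57.0 FPKM with G-CSF, against 25.0 and 180.4 FPKM without. The controls differed from each other by more than the whole level of any G-CSF library, and the log2 difference of -0.50 ± 0.81 (SE; limma adjusted p = 0.796) became 0.90 without control replicate 2.

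RABs of the endoplasmic reticulum and Golgi numbered 11, of which 8 were tested, 4 with a positive and 4 with a negative difference (2 positive after quantile normalization or centring). Their summed level was 201, 179 and 208 FPKM with G-CSF, against 132 and 465 FPKM without, so the controls enclosed the G-CSF libraries. Rab1b, which serves transport from the endoplasmic reticulum to the Golgi, measured 83.8, 88.4 and 92.6 FPKM with G-CSF, against 52.5 and 295 FPKM without. Its paralog Rab1a measured 48.6, 34.3 and 47.5 FPKM with G-CSF, compared with 24.6 and 49.1 FPKM without. Control replicate 2 was the highest library for both. The log2 differences were -0.50 ± 0.72 and 0.30 ± 0.39 (SE; limma adjusted p = 0.775 and 0.751).

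Rab2a, which acts in retrograde Golgi transport, had 31.7, 22.7 and 32.2 FPKM with G-CSF, compared with 20.8 and 71.3 FPKM without, and Rab6a, of transport within and from the Golgi, had 21.4, 19.8 and 20.0 FPKM with G-CSF, compared with 20.8 and 36.1 FPKM without. In both, control replicate 2 was again above every other library. Rab18, found on lipid droplets and the endoplasmic reticulum, was higher in all G-CSF libraries (6.28, 4.67 and 6.17 FPKM, against 4.36 and 2.36 FPKM in the controls), with a log2 difference of 0.65 ± 0.30 (SE; limma adjusted p = 0.424). Rab43, a Golgi RAB used by mouse dendritic cells for cross-presentation, was lower in all G-CSF libraries (1.45, 2.08 and 1.72 FPKM, against 2.36 and 3.24 FPKM in the controls), with a log2 difference of -0.46 ± 0.25 (SE; limma adjusted p = 0.469). Exons of Rab18 and Rab43 overlap another annotated gene on their own strand. Rab33b, which binds the autophagy protein Atg16l1, and Rab2b had log2 differences of 0.01 ± 0.22 and 0.03 ± 0.26 (SE), with overlapping groups, and both were negative after quantile normalization and after centring.

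Of the 7 members outside these roles, 4 were tested. Rab40c, whose protein carries a SOCS box that recruits a ubiquitin ligase, measured 7.11, 9.44 and 8.25 FPKM with G-CSF, compared with 6.78 and 7.64 FPKM without, with overlapping groups (log2 difference 0.17 ± 0.24, SE). Rab28, known from photoreceptors, measured 2.67, 3.996 and 2.42 FPKM with G-CSF, against 4.25 and 4.90 FPKM without. Every G-CSF library was below both controls, by a narrow margin for G-CSF replicate 2, and the log2 difference was -0.49 ± 0.26 (SE; limma adjusted p = 0.470). Rab23, which dampens Hedgehog signalling in mouse embryos, also lay below both controls, at 0.477, 0.956 and 0.758 FPKM with G-CSF, compared with 1.03 and 1.39 FPKM without (log2 difference -0.36 ± 0.27, SE; limma adjusted p = 0.580). Rab23 reached 1 FPKM only in the controls, so it too passed the filter only through the group where it was higher. Rab19 had a log2 difference of -0.01 ± 0.26 (SE).

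The 17 members that were not tested were Rab6b, Rab33a, Rab30, Rab4a, Rab15, Rab17, Rab25, Rab13, Rab26, Rab3b, Rab3c, Rab34, Rab39, Rab39b, Rab36, Rab42 and Rab40b. Their highest value was 1.69 FPKM, for Rab34 in control replicate 2, and 15 of them stayed under 1 FPKM in every library. No library held more than 35 reads of any of them. Rab33a was listed at 0 in both controls and at 0.402, 0.178 and 0.346 FPKM in the G-CSF libraries. Several members of this set, such as Rab25 and Rab17 of epithelia and Rab3b and Rab3c of neurons and endocrine cells, are known mainly from other tissues.

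Which control served as the comparison decided the sign of many RABs. Against control replicate 1 alone, 28 of 41 members were higher with G-CSF (median 0.24), and against control replicate 2 alone 23 were (median 0.09). With either control, 19 members were higher and 9 lower, and 13 changed sign between the controls. These 2 comparisons share the G-CSF libraries. Without control replicate 1, limma called 7 members higher (Rab18, Rab27a, Rab29, Rab31, Rab32, Rab7b and Rab8b, 17.1% of 41, where 16.1% of all rows were called higher) and 4 lower (Rab10, Rab1b, Rab2a and Rab6a, 9.76%, where 11.9% of all rows were). That fit has a lone control, which is assumed to vary like the G-CSF libraries, so its calls describe control replicate 2. Without control replicate 2, no member was called, while an unadjusted p under 0.05 was reached by 10 with higher values (24.4%, beside 10.7% of all rows) and 3 with lower values (7.32%, beside 7.84%). For Rab1b the log2 difference was 0.74 against control replicate 1 and -1.73 against control replicate 2, and for Rab10 it was 0.90 and -1.90. Rab7b differed least between the controls of the members named at an unadjusted p under 0.05, at 0.86 and 1.02, apart from Rab37 at -0.73 and -0.63. The median over tested members was 478 to 544 reads in the G-CSF libraries, 384 reads in control replicate 1 and 129 reads in control replicate 2; the part of depth in these differences was not tested.

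**Figure D4:**
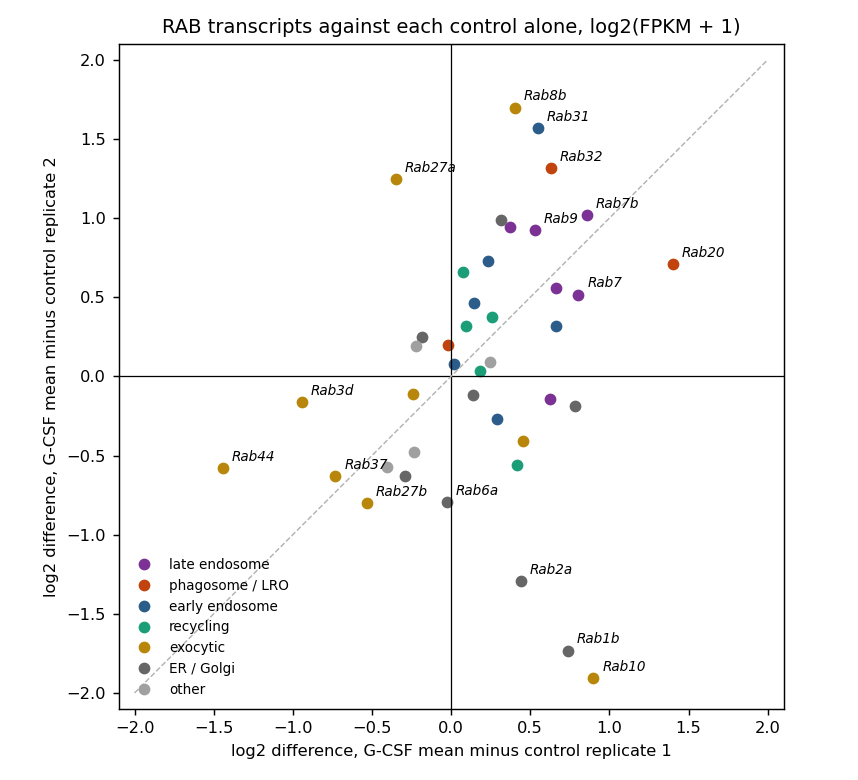
Each point is a tested RAB transcript, with the log2 difference of the G-CSF mean from control replicate 1 on the x axis and from control replicate 2 on the y axis (log2(FPKM + 1) scale), colours marking role (LRO stands for lysosome-related organelle) and the dashed line equal differences. Rab7b, Rab20, Rab32, Rab31 and Rab8b lie in the upper right, Rab44 and Rab37 in the lower left, and Rab10 and Rab1b in the lower right, where the sign depends on the control.

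The proteins that switch and read RABs were taken from lists of 123 genes, of which 122 were in the table and 104 were tested. None was called (limma). The difference was positive for 48 and negative for 56 (median -0.02), with 41 positive after quantile normalization and 38 after centring. At an unadjusted p under 0.05, 0 were higher (beside 7.9% of all rows) and 6 were lower (5.77%, beside 4.76%). After those scalings 10 and 12 of the 104 were lower (beside 5.82% and 6.88% of all rows). The same scalings gave 1 and 0 higher (beside 5.89% and 5.59%). Among 31 tested GAPs, 15 were positive and 16 negative (13 and 11 positive after quantile normalization and centring), and 3 of the 31 were lower at an unadjusted p under 0.05, beside 4.76% of all rows. Tbc1d10c, a TBC-domain GAP known in lymphocytes as carabin, measured 1.61, 2.95 and 1.81 FPKM with G-CSF, against 8.46 and 6.85 FPKM without. The groups were far apart, with a log2 difference of -1.49 ± 0.28 (SE; unadjusted p = 0.00198, limma adjusted p = 0.218). Summed markers of 3 lists were lower in the same libraries. B cell markers were at 58.2 to 78.1 FPKM with G-CSF against 203 and 110 FPKM without. T and NK cell markers were at 0.882 to 2.95 FPKM against 4.25 and 3.52 FPKM. Eosinophil, basophil and mast cell markers were at 52.1 to 71.0 FPKM against 93.1 and 189 FPKM. The part of any of these cells in the difference of Tbc1d10c was not tested. Tbc1d16 measured 3.50, 5.504 and 4.22 FPKM with G-CSF against 6.90 and 18.8 FPKM without, and Tbc1d8 measured 16.7, 29.2 and 17.2 FPKM with G-CSF against 40.5 and 35.1 FPKM without (limma adjusted p = 0.365 and 0.384). Both were lower in every G-CSF library. The most abundant GAP per length, Tbc1d13, which acts on Rab35, had 42.5, 30.1 and 49.0 FPKM with G-CSF, compared with 17.8 and 77.4 FPKM without, with the controls on either side.

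Of 31 tested GEFs, 15 were positive and 16 negative, or 12 and 19 after either scaling. Dennd5b and Dennd2a, of the DENN-domain family, were lower in every G-CSF library. Dennd5b had 0.437, 0.665 and 0.399 FPKM with G-CSF against 1.83 and 1.55 FPKM without, and Dennd2a had 2.38, 1.59 and 2.26 FPKM against 3.82 and 3.79 FPKM (limma adjusted p = 0.318 and 0.370). Dennd5b reached 1 FPKM only in the controls, so it passed the filter only through the group where it was higher. Ric1, a subunit of the exchange complex for Rab6, had 12.5, 11.02 and 12.1 FPKM with G-CSF against 8.61 and 6.62 FPKM without (log2 difference 0.59 ± 0.24, SE; limma adjusted p = 0.395). Rin3, an exchange factor for Rab5 and Rab31, was the most abundant GEF per length, at 30.1, 48.2 and 31.8 FPKM with G-CSF, compared with 49.7 and 22.0 FPKM without, and its groups overlapped.

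Of the 8 genes for GDI, escort and lipid attachment, 5 were positive and 3 negative, or 4 and 4 after centring. Rabggtb, a subunit of the transferase that attaches the RAB lipid anchor, had 6.63, 3.82 and 5.30 FPKM with G-CSF against 3.55 and 1.19 FPKM without, with separate groups (log2 difference 0.96 ± 0.39, SE; limma adjusted p = 0.398). The escort proteins Chm and Chml had 2.52, 2.43 and 2.31 FPKM and 1.67, 1.33 and 1.38 FPKM with G-CSF. Without it they had 2.65 and 0.255 FPKM and 1.48 and 0.455 FPKM, so in both genes control replicate 2 alone lay below all G-CSF libraries. Rabac1, which strips RABs from GDI, was the most abundant at 45.8, 73.5 and 54.7 FPKM with G-CSF, compared with 46.0 and 48.7 FPKM without, with overlapping groups.

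Endosomal effectors (23 tested) were positive in 7 and negative in 16 (5 and 18 after either scaling), and none had an unadjusted p under 0.05. Against control replicate 1 alone 12 of 23 were positive, and against control replicate 2 alone 7 were. Rab11fip5, a Rab11 effector, had 28.6, 32.8 and 35.1 FPKM with G-CSF against 10.9 and 25.8 FPKM without, and Vps41, of the HOPS tether that Rab7 engages at lysosomes, had 7.37, 4.78 and 6.16 FPKM against 4.78 and 2.23 FPKM. Plekhm1, an adaptor between Rab7 and HOPS, had 33.3, 41.05 and 36.7 FPKM with G-CSF against 41.1 and 95.7 FPKM without, so the Rab7 adaptor and Rab7 itself had fitted differences of opposite sign. Rab11fip4 had 0.687, 1.74 and 0.753 FPKM with G-CSF, compared with 3.33 and 1.66 FPKM without, with overlapping groups.

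Of 11 tested secretory effectors and RAB kinases, 6 were positive and 5 negative. Sytl1, a Rab27 effector of the synaptotagmin-like family, had 0.785, 2.61 and 1.33 FPKM with G-CSF against 4.44 and 6.64 FPKM without. Every G-CSF library was below both controls, with a log2 difference of -1.39 ± 0.37 (SE; unadjusted p = 0.0103, limma adjusted p = 0.293). Unc13d, the Rab27a effector that primes granules for fusion, had 13.2, 20.9 and 14.8 FPKM with G-CSF against 26.1 and 24.8 FPKM without, also with separate groups (log2 difference -0.64 ± 0.29, SE; limma adjusted p = 0.420). Gorasp2, a Golgi stacking protein that binds Rab2, had 14.3, 9.87 and 13.4 FPKM with G-CSF against 8.56 and 8.42 FPKM without. Lrrk2, the kinase that phosphorylates Rab8, Rab10 and Rab29 and was singled out after its values were seen, had 5.79, 8.003 and 5.27 FPKM with G-CSF, compared with 24.4 and 3.80 FPKM without, with the controls on either side.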

How the data were processed

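Bulk RNA-seq of bone marrow monocytes was deposited by the authors as FPKM, with 1 column for each of 3 G-CSF and 2 control libraries. Per the submitters' processing notes the build was mm10, and the only tool named is Cell Ranger 5.0.1, made for single cells. The aligner, counter, strandedness, handling of reads shared by paralogs and sorting of the bulk libraries are not given in the sources used here, since the protocol in the labels describes skin digestion only. All 33559 rows were read, and groups were taken from the labels.

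The 16791 rows that reached 1 FPKM in 2 or more libraries were tested on log2(FPKM + 1) with limma 3.58.1 (R 4.3.3; two-sided, variances moderated along a trend, Benjamini-Hochberg adjustment over all rows tested, threshold 0.05, 3 residual degrees of freedom). A symbol matched 1 gene of GENCODE M21 (GRCm38) for 89.6% of rows. FPKM times exon length then gave whole reads in all libraries, within 0.001 reads, for 94.3% of those rows, whose sum is a lower bound of depth. Alternatives were pseudocounts of 0.1 and 5, no filter or a minimum FPKM of 5, protein-coding rows only, quantile normalization, median centring, no trend, voom on recovered reads, the replicate number as a block, and each library left out. The tests were checked on simulated data. Tables and figures were made with Python 3.11.15, numpy 2.4.6, pandas 2.3.3 and matplotlib 3.10.9.

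Values in all libraries were to be given for the 10 tested members with the smallest p, the 2 most abundant of each role and the paralogs of Rab3, Rab5, Rab7, Rab8, Rab11 and Rab27; the other tested members are described as well. Each list of regulators contributed the 3 lowest p values, or fewer, and its most abundant member. The RAB members, the role groups, the lists and the tests were chosen with earlier results of these data known.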

Additional observations from a re-analysis of the deposited data

How the results depend on the processing

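No member was called under any alternative with both controls, the replicate block included, nor without control replicate 2 or a G-CSF replicate. Leaving out a library gave 0 to 7 called higher and 0 to 4 called lower, both highest without control replicate 1; on protein-coding rows only without control replicate 1, an alternative added after seeing the data, there were 9 and 8, where 27.2% and 16.5% of all such rows were called. At an unadjusted p under 0.05, beside 7 higher and 1 lower, there were 3 higher after quantile normalization, 3 and 3 after centring, 0 and 0 with the replicate block, 0 to 6 lower and 1 to 10 higher with a library left out, 2 lower with a pseudocount of 5, 0 lower at a minimum FPKM of 5, and 3 lower on protein-coding rows or with voom on recovered reads. Of the alternatives added after seeing the data, protein-coding rows with voom gave 3 lower, protein-coding rows without control replicate 1 gave 8 lower, and protein-coding rows without control replicate 2 gave 11 higher and 3 lower. Of all rows, 4.97% were lower at an unadjusted p under 0.05 with a pseudocount of 5, and 3.4% at a minimum FPKM of 5. The lower share was 4.91% of all protein-coding rows, and 4.89% of all rows with voom. At an unadjusted p under 0.05 on protein-coding rows with a control left out, members were lower no more often than all such rows. They were higher more often only without control replicate 2. Those fits have a lone control, so they describe that control only. The replicate numbers were not said to pair samples. Deviations of same-numbered libraries correlated at -0.07 and -0.23, values that are not independent with 2 controls. The median of the members, 0.11, was 0.011 with no filter on low values (30 of 58 positive, beside a median of -0.093 over all rows), 0.30 at a minimum FPKM of 5, -0.0126 after quantile normalization, -0.0277 after centring, 0.24 on protein-coding rows without control replicate 2, and 0.0924 to 0.245 with a library left out. The cause of these shifts was not tested. The set of members also changed with the filter, to 58 with none and 30 at a minimum FPKM of 5, where the median over all rows was 0.22. After quantile normalization and after centring, the signs turned for Rab11b (-0.0126 and -0.0277), Rab8a (-0.0781 and -0.115) and Rab5a (-0.0351 and -0.123). With a library left out, the log2 difference spanned -0.35 to 1.25 for Rab27a, -0.19 to 0.78 for Rab1a, -0.15 to 0.62 for Rab24, -1.73 to 0.74 for Rab1b, -1.90 to 0.90 for Rab10, -0.41 to 0.45 for Rab8a and -0.27 to 0.29 for Rab5a. On protein-coding rows, leaving out control replicate 1 turned Rab1a (-0.19), Rab24 (-0.15), Rab8a (-0.41) and Rab5a (-0.27), and leaving out control replicate 2 turned Rab27a (-0.35), Rab1b (0.74) and Rab10 (0.90). Among the 27 named members, the sign turned in 9 of 135 values with a library left out and in 13 of 344 under the other alternatives. Depth limits control replicate 2 most, with a median of 129 reads per tested member.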
